A study of Mus musculus with 2 samples.

Results

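*Gpr1*, *Zdbf2* and *Adam23* lie side by side on mouse chromosome 1 and form the neighbourhood of the imprinted *Zdbf2* gene. They were taken by name with all contacts of the region from 1 Mb below to 1 Mb above *Zdbf2*, and are 3 of the 512 protein-coding genes whose start sites lie in the part of chromosome 1 analysed here, which runs from 3 to 90.75 Mb. Contacts came from Hi-C, in which DNA ends that are neighbours in fixed nuclei are ligated and sequenced as a pair, and each such read pair stands for 1 contact. The groups were wild-type (WT) mouse embryonic stem (ES) cells and *Lin28a* knockout ES cells, with 1 library each, both grown for 2 days on feeder fibroblasts in LIF/2i medium, which holds cells in a naive pluripotent state. Both groups share the feeders and the medium, and the labels name no other treatment. The study's methods describe *Lin28a* knockouts as picked clones made with CRISPR/Cas9, and its results also name ES cells from *Lin28* knockout mice. Which of these the Hi-C library came from, and whether it came from 1 clone, is not stated. The feeders' part in the contacts was not tested. The targeted gene cannot be checked from these contacts, since the kind of allele is not stated and a small edit would leave the gene in place. Its body on chromosome 4 drew 12 trans ends in the WT library and 15 in the knockout library. Per the labels 2 replicates were made for each group, but the pairs do not say which replicate they came from, so no test was possible, and intervals, all at the 95% level, cover counting error only.

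Imprinted genes are expressed mainly from the chromosome of 1 parent, according to DNA methylation laid down in the germ line. *Zdbf2*, which encodes a protein with a zinc finger of the DBF type, is expressed from the paternal chromosome. It has a long isoform, known as *Liz*, that starts inside *Gpr1* and is used in pluripotent cells, and a start of its own further on, which is used in later tissues. *Gpr1* encodes a receptor for the adipokine chemerin, and *Adam23* encodes a membrane protein of the ADAM family that lacks protease activity and binds the secreted protein LGI1 in the nervous system. Hi-C pairs without a genetic difference between the parents cannot tell the paternal from the maternal chromosome, so every value below is an average over both.

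In the GENCODE annotation of GRCm38, *Gpr1* (ENSMUSG00000046856.13) covers chr1:63182691-63214543 on the minus strand, *Zdbf2* (ENSMUSG00000027520.15) covers chr1:63273265-63314576 on the plus strand, and *Adam23* (ENSMUSG00000025964.15) covers chr1:63445891-63596276 on the plus strand. RefSeq places the start of the long *Zdbf2* isoform at 63200358, within the *Gpr1* body on the opposite strand and 72.9 kb below the start annotated by GENCODE. The sequences of both *Zdbf2* starts (RefSeq, GRCm38.p6, plus strand, 250 bases before to 50 after the start) are shown because the contacts between them and across the second are the subject of the comparisons below. Capitals mark the CG dinucleotides, the sites of DNA methylation.
Long *Zdbf2* start, chr1:63200108-63200407: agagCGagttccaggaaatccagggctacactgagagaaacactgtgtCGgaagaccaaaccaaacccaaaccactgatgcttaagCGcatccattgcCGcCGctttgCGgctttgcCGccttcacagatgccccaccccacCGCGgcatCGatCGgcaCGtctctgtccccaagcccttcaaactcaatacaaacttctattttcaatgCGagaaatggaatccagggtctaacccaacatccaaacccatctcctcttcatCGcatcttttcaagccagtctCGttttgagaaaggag
*Zdbf2* start, chr1:63273019-63273318: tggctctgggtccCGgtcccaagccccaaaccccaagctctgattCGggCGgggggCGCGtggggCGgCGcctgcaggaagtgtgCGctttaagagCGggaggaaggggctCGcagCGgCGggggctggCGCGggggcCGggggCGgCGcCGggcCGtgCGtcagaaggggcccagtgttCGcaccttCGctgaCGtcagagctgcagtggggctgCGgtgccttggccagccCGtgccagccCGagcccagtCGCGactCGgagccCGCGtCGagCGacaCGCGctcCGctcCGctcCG
The long start held 15 CG in 300 bases, and 34.6% of the 32851 promoters in the RefSeq table held as many. The start at the gene itself held 38, a number reached by 4.95% of promoters. The *Adam23* start was similarly rich, with 31 CG. Neither of the *Gpr1* starts was, with 2 CG each against a median of 7 over all promoters.

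CTCF is a DNA-binding factor that stops the loop-forming complex cohesin and marks many domain edges. Exact matches to the 12-letter CTCF core motif, searched on both strands, lay in 8.72% of the 3510 bins of 25 kb. The 25 kb bin from 63175001 that holds the 3' part of *Gpr1* had 4 of them, and it was the 1 bin of the 3510 with 4 or more. Another match lay at 63219494, just above *Gpr1*. These 5 were all the matches between 63.04 and 63.64 Mb, so that none lay in *Zdbf2* or *Adam23*. The matches are printed 5' to 3' on their own strand with 9 bases to either side, and capitals mark the motif.
Plus strand, chr1:63181154-63181183: tcatgaaggCCAGCAGAGGGCagtgttagg
Plus strand, chr1:63181264-63181293: ccatgagagCCAGCAGAGGGCagcacttgg
Plus strand, chr1:63182817-63182846, in *Gpr1*: tcagaacggCCACCAGAGGGCagccagaaa
Minus strand, chr1:63192171-63192200, in *Gpr1*: tcagacacaCCAGCAGAGGGCattggattc
Minus strand, chr1:63219485-63219514: ccatgcaggCCAGTAGAGGGCatcagctcc
The 3 lower matches are on the plus strand and the 2 upper ones are on the minus strand. A match is a stretch of letters, and binding of CTCF was not measured here.

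The part of chromosome 1 analysed held 3255028 cis pairs at least 5 kb apart in WT and 2509097 in the knockout. An end within 1 Mb of *Zdbf2* was present in 125778 and 99114 of them, which is 3.86% and 3.95%. The knockout share was 1.02 times the WT share (95% interval 1.01 to 1.03). The median over 172 windows of the same length along the chromosome part was also 1.02 (range 0.957 to 1.06), so the locus as a whole was covered about as the rest was. This does not settle the coverage of single genes, for whose bins no background was computed. The 25 kb bins of *Gpr1* drew 4397 cis pairs in WT and 3482 in the knockout, those of *Zdbf2* drew 5478 and 4536, and those of *Adam23* drew 11594 and 9368.

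The first question was in which domain the 3 genes lie and whether its edges were the same in both libraries. An insulation score was used, which is the log2 of the contacts that pass over a 25 kb bin within 250 kb, relative to the chromosome mean, so that a domain edge is a minimum. All 3 genes lay in 1 domain in both libraries at the settings used, although 5 of 8 other settings called a further edge inside it in WT and 2 of 8 did in the knockout, at 63.1625, 63.3125 or 63.3625 Mb. Its lower edge was the bin centred at 63.0375 Mb, in *Ino80d*, which encodes a subunit of the INO80 chromatin remodeller, with a score of -0.75 in WT and -0.79 in the knockout. Its upper edge was centred at 63.6375 Mb in WT and at 63.6625 Mb in the knockout, in *Dytn* in both, the gene of a dystrophin-related protein, with scores of -0.50 and -0.38. The edges at 62.3625 and 62.7125 Mb were also called in both libraries, with scores of -0.11 and -0.01 and of -0.14 and -0.05. Each library thus had 4 edges within 1 Mb of *Zdbf2*, and all 4 of the knockout lay within 1 bin of a WT edge. Over the whole chromosome part, 137 of 185 knockout edges (74.1%) did.

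**Figure D1:**
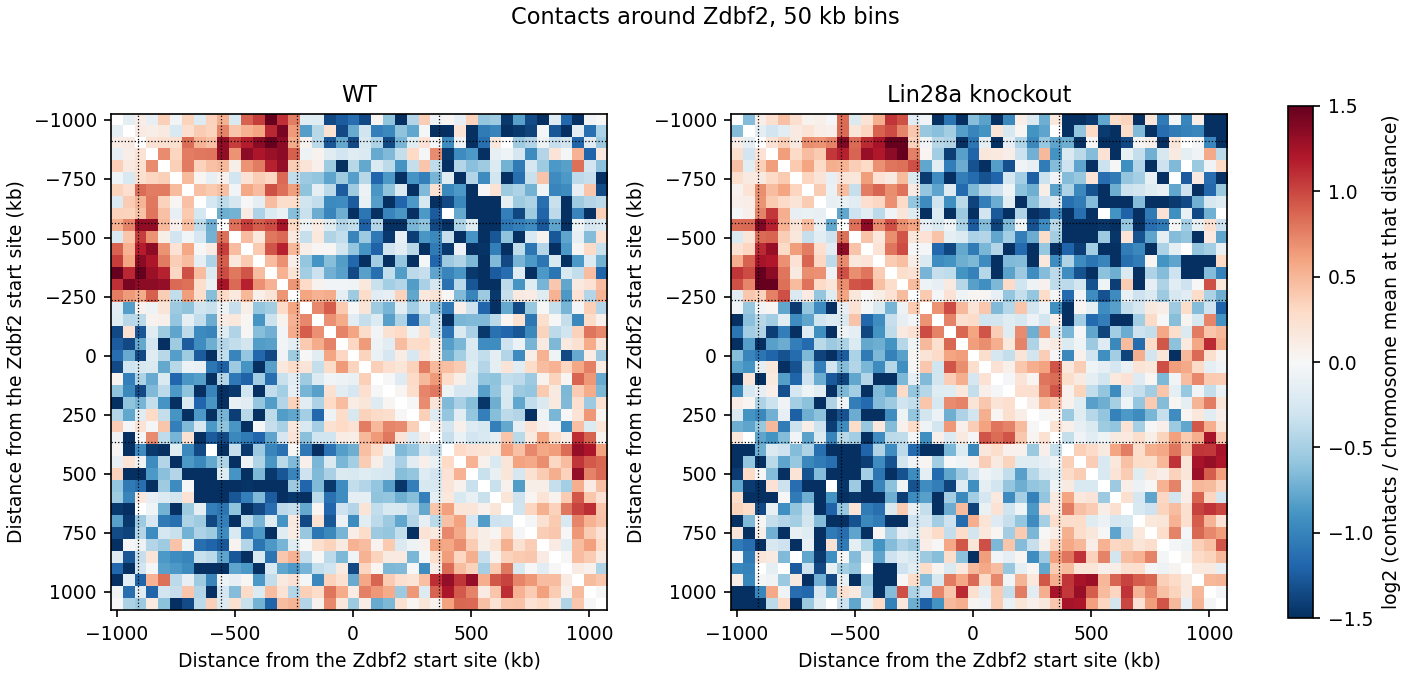
Contacts of 50 kb bins from about 1 Mb below to 1 Mb above *Zdbf2* in the WT (left) and *Lin28a* knockout (right) libraries, as log2 of pairs over the chromosome mean at that distance. Both axes give the distance from the *Zdbf2* start in kb, the diagonal is blank, and dotted lines are the 4 edges of the summed map. The square between the edges at -236 and 364 kb holds the 3 genes in both maps.

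At the edges, how many contacts crossed was then counted. Of all pairs with both ends within 250 kb of the lower edge, 20.7% crossed it in WT and 19.6% in the knockout, an odds ratio of 0.94 (0.85 to 1.03) for knockout over WT. At the upper edge 22.5% and 23.7% crossed, with an odds ratio of 1.07 (0.97 to 1.19). Both intervals include 1, so that a difference in these 2 bins was not detectable at this depth. At the upper edge this depended on the square and on the bin. With a square of 500 kb the odds ratio there was 1.07 (1.003 to 1.14), an interval just above 1. In the next bin below, centred at 63.6125 Mb, 23.9% crossed in WT and 26.6% in the knockout, an odds ratio of 1.16 (1.05 to 1.28). The other 2 edges were crossed more often in the knockout. At 62.3625 Mb the share was 26.6% in WT and 29.4% in the knockout, with an odds ratio of 1.15 (1.05 to 1.26). At 62.7125 Mb it was 24.2% and 26.5%, with an odds ratio of 1.13 (1.03 to 1.24). Both intervals, which are above 1 as are those of 11.4% of the 185 edges, include 1 with the smaller square. The domain drew 7303 inner pairs in WT, 1.20 times the chromosome mean at those distances (1.17 to 1.23), and 5860 in the knockout, 1.25 times (1.22 to 1.28). Among 172 domains of at least 200 kb, the median was 1.13 in WT and 1.11 in the knockout, and 68 and 54 domains had a higher value than this one.

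Inside the domain, the libraries differed at *Zdbf2*. In the 25 kb bin with the *Zdbf2* start, from 63250001 to 63275000, the crossing share was 23.7% in WT (22.6% to 24.9%, 1370 of 5770 pairs) and 27.5% in the knockout (26.2% to 28.8%, 1260 of 4579 pairs). The odds ratio was 1.22 (1.12 to 1.33), and the insulation score was -0.25 in WT and -0.06 in the knockout. In WT the share had a shallow low point here, down to 23.5% in the next bin, between 25.1% in the bin with the *Gpr1* start and 30.9% within *Adam23*. The knockout share had a low point of like depth, from 27.8% in the bin with the *Gpr1* start down to 26.0% in the bin centred at 63.3125 Mb and up to 32.6% within *Adam23*, and lay above the WT share in each bin between these. Below the bin with the *Gpr1* start the share was lower still, at 23.1% in WT and 23.8% in the knockout in the bin centred at 63.1625 Mb. The insulation score there was -0.47 in both, so the low point near *Zdbf2* was not the lowest inside the domain. The *Zdbf2* start bin was looked at after the data were seen. Over all 3461 bins with at least 500 pairs in each library, the odds ratio had a median of 1.02 and ran from 0.92 to 1.13 between the 5th and 95th percentiles. That of the *Zdbf2* start bin was the 10th highest, and 0.520% of bins reached 1.2. Neighbouring bins share most of their pairs and moved together. Within the domain, 9 of 23 bins had an interval above 1, where 9.94% of all bins did, and 0 of 23 had an interval below 1, where 2.46% of all bins did. Those above 1 were not all near *Zdbf2*. Some were the bins centred from 63.2125 to 63.3125 Mb, and the rest lay from 63.5125 to 63.6125 Mb, toward the upper edge. Bins between these stretches had intervals that include 1, such as 1.02 (0.93 to 1.11) at 63.3875 Mb. The bin centred at 63.6125 Mb had an odds ratio of 1.16 (1.05 to 1.28). The read names showed 2 sequencing runs per library, and whether these are the labelled replicates is not stated. The share in the *Zdbf2* start bin was 23.7% in the larger and 24.2% in the smaller WT run, and 27.6% and 26.7% in the knockout runs. The intervals of the smaller runs (20.5% to 28.2% and 20.8% to 33.2%) overlap.

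**Figure D2:**
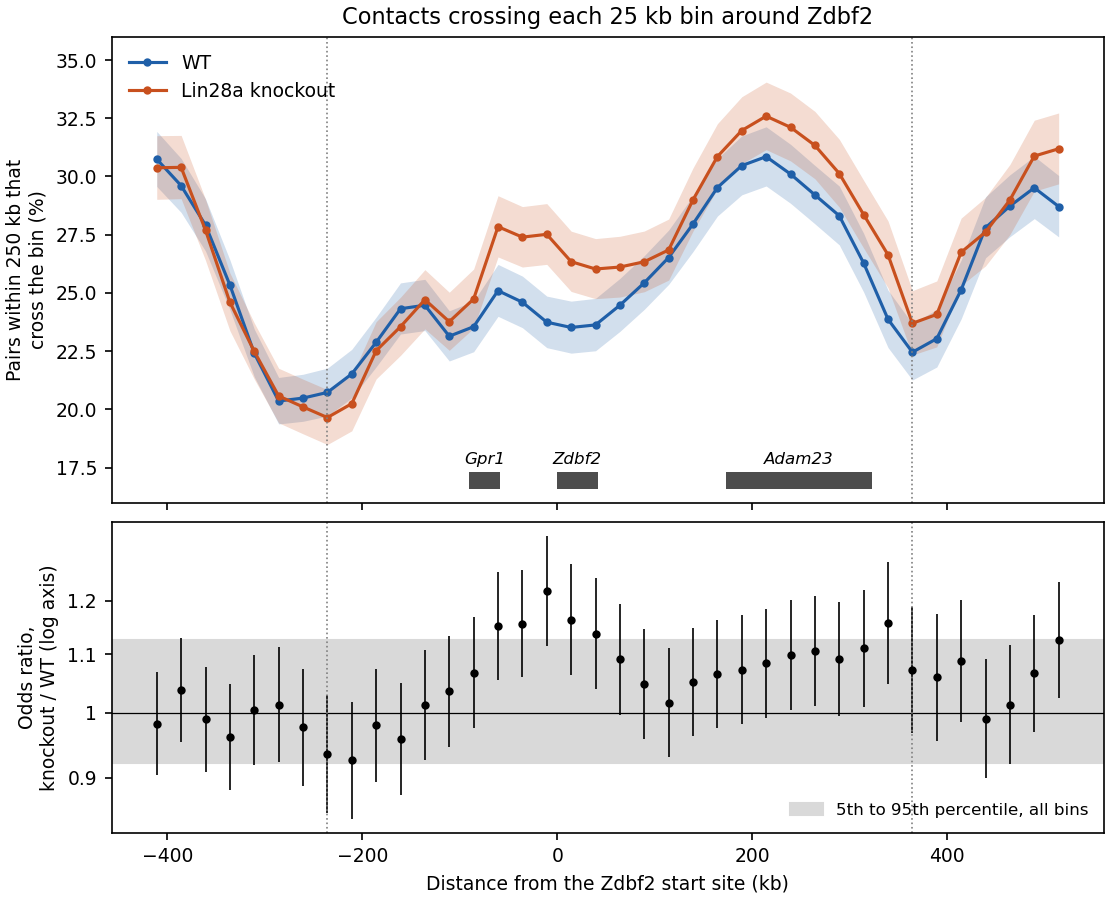
Top, share of pairs within 250 kb that cross each 25 kb bin, in percent, against the distance from the *Zdbf2* start in kb, for WT (blue) and *Lin28a* knockout (orange), with exact binomial 95% intervals as bands and gene bodies as bars. Bottom, odds ratio of knockout over WT with its 95% interval on a log axis, and the 5th to 95th percentile over all bins (0.92 to 1.13) in grey. Dotted lines are domain edges, and the highest odds ratio shown, 1.22, is at the *Zdbf2* start.

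The contacts across that bin were also counted over the whole domain. The division was chosen after the data were seen, at the bin picked for its odds ratio, and it counts many of the same pairs, so the values describe that difference over longer distances and are not separate evidence of it. The lower side, from 63.04 to 63.26 Mb, holds *Gpr1* and the starts of *Ino80d*, *Ndufs1* and *Eef1b2*. The upper side, from 63.26 to 63.64 Mb, holds *Zdbf2*, *Adam23* and *Gm39653*. Between the sides there were 1561 pairs in WT, 1.00 times the mean at those distances (0.951 to 1.05), and 1452 in the knockout, 1.18 times (1.12 to 1.25). The ratio was 1.18 (1.10 to 1.27). At 3417 positions along the chromosome part, contact of blocks of the same lengths had a median ratio of 1.01 (5th to 95th percentile 0.897 to 1.11), and 6.61% were at 1.1 or more. Scaled to the ends of both blocks in place of the mean at those distances, the ratio between the sides was lower, 1.10 (1.03 to 1.19). No background was computed at that scaling. Within each side a difference was not detectable. The lower side had 1.57 times the mean in both, with a ratio of 1.00 (0.934 to 1.06), and the upper side had 1.14 times in both, with a ratio of 1.00 (0.955 to 1.06). Contact of the domain with the one above it, up to 64.54 Mb, was 0.943 in WT and 1.01 in the knockout, with a ratio of 1.07 (1.02 to 1.12). Contact with the one below it, down to 62.71 Mb, was 0.843 and 0.793, with a ratio of 0.94 (0.882 to 1.00). No background over other neighbouring domains was computed for these contacts.

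Contacts between single genes were fewer, and in 25 kb bins each ratio had an interval that includes 1. The bins of *Gpr1* and *Zdbf2* were joined by 246 pairs in WT and 208 in the knockout, 1.75 (1.53 to 1.98) and 1.91 (1.66 to 2.18) times the mean at their distance. The knockout over WT ratio was 1.09 (0.903 to 1.32), and in 50 kb bins it was 1.18 (1.04 to 1.34), which leaves out 1. Scaled to the ends of the 25 kb bins in place of the mean at that distance, it was 1.00 (0.829 to 1.21). *Zdbf2* and *Adam23* were joined by 298 and 256 pairs, 1.11 and 1.22 times the mean, with a ratio of 1.10 (0.927 to 1.30). *Gpr1* and *Adam23*, further apart, were joined by 173 and 137 pairs, 1.25 times the mean in both libraries, with a ratio of 1.00 (0.796 to 1.26). Each pair of genes was thus in contact above the chromosome mean in both libraries, with the WT interval of *Zdbf2* and *Adam23* (0.991 to 1.25) including 1. Scaled to the ends of the bins, the ratio was 1.01 (0.855 to 1.20) for *Zdbf2* with *Adam23* and 0.922 (0.732 to 1.16) for *Gpr1* with *Adam23*. Windows of 25 kb centred on the long and the second *Zdbf2* start were joined by 41 pairs in WT and 29 in the knockout, 1.59 (1.14 to 2.16) and 1.45 (0.974 to 2.09) times the mean, with a ratio of 0.913 (0.547 to 1.504). The second *Zdbf2* start and the *Adam23* start were joined by 10 pairs in each library, 0.688 (0.330 to 1.27) and 0.884 (0.424 to 1.62) times the mean. The long start and the *Adam23* start were joined by 13 and 9 pairs, 1.11 (0.591 to 1.90) and 0.980 (0.448 to 1.86) times the mean. The long start and the *Gpr1* start are too close for a separate value at 25 kb.

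The reach of each gene was described by 2 shares. Of the cis pairs of *Gpr1*, 27.0% (25.6% to 28.3%) in WT and 27.6% (26.1% to 29.1%) in the knockout ended within 200 kb. For *Zdbf2* the share was 23.8% in both libraries, with a difference of 0.04 percentage points (-1.63 to 1.72), and for *Adam23* it was 20.7% and 20.2%. The median over 3313 single bins of 25 kb was 25.02% and 24.45%. The genes cover 2, 3 and 7 such bins, and a pair between bins of the same gene was counted once. A share of a whole gene therefore cannot be ranked against that median or against the share of a gene of another length. Of the pairs within 1 Mb, *Zdbf2* sent 47.6% in WT and 48.1% in the knockout to lower coordinates and *Adam23* sent 50.8% and 50.2%. *Gpr1* sent 44.1% (41.7% to 46.6%) and 40.8% (38.2% to 43.5%), so in both libraries it reached more often upward, toward *Zdbf2*, and the difference between the libraries of -3.26 points had an interval from -6.81 to 0.31.

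**Figure D3:**
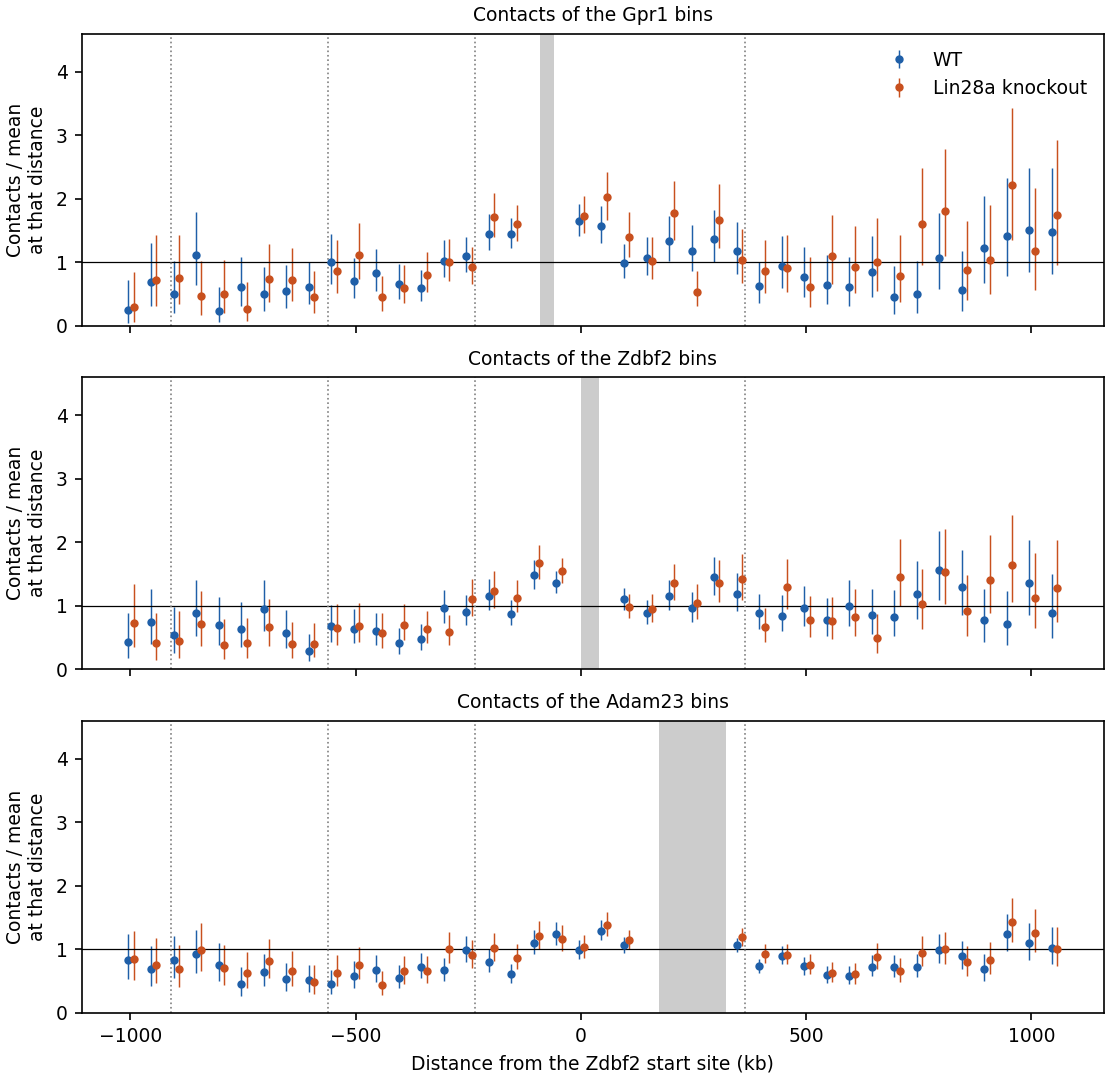
Contacts of the bins of *Gpr1*, *Zdbf2* and *Adam23* (grey bars) with 50 kb bins, as pairs over the chromosome mean at that distance, against the distance of the partner bin from the *Zdbf2* start in kb. Points are WT (blue) and *Lin28a* knockout (orange) with exact Poisson 95% intervals, and dotted lines are domain edges. Between the edges at -236 and 364 kb, 9 of 10 bins for *Gpr1*, 8 of 10 for *Zdbf2* and 7 of 8 for *Adam23* are above 1 in the knockout, and outside them 10, 9 and 4 of 30 are. In WT the counts above 1 are 9, 7 and 5 between the edges and 8, 4 and 3 outside them.

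In the contact profiles, each gene met bins of its own domain more than bins outside. For *Zdbf2* the median was 1.16 times the mean inside and 0.782 outside in WT, and 1.29 and 0.698 in the knockout. For *Gpr1* it was 1.36 inside and 0.657 outside in WT, and 1.64 and 0.869 in the knockout. For *Adam23* it was 1.06 and 0.726 in WT, and 1.16 and 0.761 in the knockout. Of the 40, 40 and 38 partner bins of 50 kb of *Gpr1*, *Zdbf2* and *Adam23*, the ratio had an interval above 1 in 1, 1 and 3 and below 1 in 1, 1 and 0. These are contacts of whole genes, some with few pairs, and no share over comparable contacts was computed. Of the 107 single 50 kb bin pairs with an end in 1 of the 3 genes and at least 40 pairs, 5 had an interval above 1 and 3 below, where 2.37% and 2.40% of all such bin pairs did.

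Of the other protein-coding genes that start within 1 Mb, the contact with *Zdbf2* was highest, over the mean at that distance, for the start bin shared by *Eef1b2*, which encodes a subunit of translation elongation factor 1, and *Ndufs1*, which encodes a subunit of respiratory complex I. That bin was joined to *Zdbf2* by 117 pairs in WT and 112 in the knockout, 1.86 and 2.30 times the mean, with a ratio of 1.24 (0.946 to 1.62). The *Ino80d* start had 31 and 38 pairs, 0.705 and 1.11 times the mean, with a ratio of 1.57 (0.953 to 2.61). *Gm39653*, a gene without a known role, had 33 and 29 pairs, 1.16 and 1.29 times the mean.
Outside the domain, the start bin shared by *Mdh1b*, a relative of malate dehydrogenase, and *Fastkd2*, a mitochondrial RNA-binding protein, had 16 pairs in WT and 27 in the knockout, 0.751 and 1.57 times the mean, with a ratio of 2.09 (1.08 to 4.15). No share over comparable bins was computed for this single contact, which rests on few pairs. *Nrp2*, the gene of a receptor for semaphorins and VEGF, had 13 and 9 pairs, *Dytn* had 21 and 12, *4933402D24Rik* had 20 and 13, and *Klf7*, the gene of a zinc finger transcription factor, had 16 and 7. The ratios of these 4 genes, from 0.518 to 0.844, all had intervals that include 1.

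The compartment of the genes was the last question within chromosome 1. At 250 kb, far contacts divide chromatin into A, with more genes, and B, with fewer, and the leading eigenvector of the contact map, given in SD units with A above 0, tells them apart. All 3 genes were in A in both libraries. The bin from 63 to 63.25 Mb, with *Gpr1*, had a value of 1.53 in WT and 1.71 in the knockout. The bin from 63.25 to 63.5 Mb, with *Zdbf2* and the lower part of *Adam23*, had 1.28 and 1.49. The bin from 63.5 to 63.75 Mb, with the upper part of *Adam23*, had 0.78 and 1.30. The last difference, 0.52, was the 1 of 348 bins above 0.5. Another 1 of the 348 was below -0.5, and the differences had an SD of 0.153. In 100 kb bins, the largest move among those of the 3 genes was from 0.54 to 1.31, in the bin from 63.5 to 63.6 Mb within *Adam23*. The others, from 63.1 Mb upward, went from 1.88 to 2.04, 1.57 to 1.95, 1.08 to 1.51 and 1.09 to 1.26. The SD above is of 250 kb bins and does not apply to these.

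This was counted directly as the A share, the part of pairs 2 Mb or more apart that reach the 20% of bins highest in A in the summed map, out of those that reach these or the 20% lowest. For *Gpr1* it was 82.2% in WT (79.3% to 84.9%) and 85.1% in the knockout (82.0% to 87.8%), a difference of 2.88 percentage points (-1.09 to 6.76). For *Zdbf2* it was 77.4% (74.5% to 80.1%) and 82.2% (79.4% to 84.8%), a difference of 4.77 points (0.95 to 8.54). For *Adam23* it was 69.5% (67.3% to 71.7%) and 76.3% (74.1% to 78.4%), a difference of 6.82 points (3.76 to 9.86). In both libraries the share was highest at *Gpr1* and lowest at *Adam23*. With gene-rich and gene-poor bins in place of A and B, *Adam23* reached the gene-rich ones with 41.9% in WT and 50.1% in the knockout, *Zdbf2* with 53.1% and 55.5%, and *Gpr1* with 55.3% and 58.2%. The difference was then 8.20 points (5.33 to 11.1) for *Adam23*, but for *Zdbf2* it was 2.36 points with an interval that includes 0 (-1.85 to 6.56), as did that of *Gpr1* (-1.82 to 7.62).

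Over the 162 bins of 250 kb on the A side, the A share differed by a median of 0.29 points (5th to 95th percentile -5.66 to 4.06). The 3 bins that hold the locus domain all lay above that range. They were the 3rd (63 to 63.25 Mb, 4.57 points, 2.84 to 6.29), the 7th (63.25 to 63.5 Mb, 4.34 points, 2.00 to 6.67) and the 1st (63.5 to 63.75 Mb, 7.12 points, 4.46 to 9.74) of the 162. Each of these intervals was above 0, as was that of 21.0% of A-side bins. The 3 bins below the domain, from 62.25 to 63 Mb, had differences from -1.63 to 0.12 points, with intervals that include 0. Above it, the bin from 64 to 64.25 Mb with *Klf7* ranked 2nd, with 6.62 points (4.03 to 9.19), and the bins to either side of it had 1.99 and 1.94 points.

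**Figure D4:**
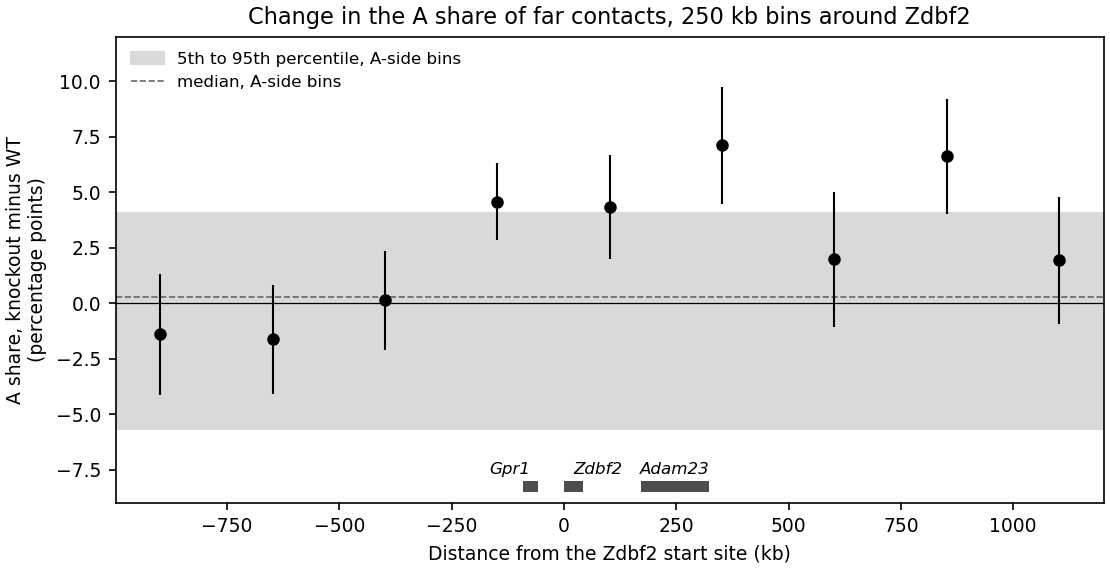
Difference in the A share of pairs 2 Mb or more apart, knockout minus WT in percentage points, for the 250 kb bins around *Zdbf2*, against the distance of the bin centre from the *Zdbf2* start in kb. Points have 95% intervals, grey is the 5th to 95th percentile over 162 A-side bins (-5.66 to 4.06) with their median of 0.29 dashed, and dark bars are gene bodies. The 3 bins of the locus domain lie above the grey range.

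As a background to the single contacts, all 50 kb bin pairs with at least 40 pairs summed over the libraries were compared. Of 330 within the locus, 16 had a knockout over WT ratio of 1.5 or more and 11 of 1.5-fold or more below, together 8.18% (5.46% to 11.7%), where 10.1% of the 18119 bin pairs of the chromosome part did (5.07% higher and 5.06% lower). Of the 107 with an end in 1 of the 3 genes, 9 were higher and 6 lower, which is 14.0%. The lowest 3 ratios at the locus joined the lower neighbour domain to the domain of the genes. The bin of *Nrp2* from 62800001 met the bin of *Ndufs1*, *Eef1b2* and *Gpr1* from 63150001 with 36 pairs in WT and 11 in the knockout, a ratio of 0.385 (0.177 to 0.773). It met the bin of *Ino80d* and *Ndufs1* from 63100001 with 41 and 14 pairs, a ratio of 0.436 (0.220 to 0.817). The bin of *Ino80d* from 62950001 met the *Zdbf2* bin from 63300001 with 40 and 15 pairs, a ratio of 0.472 (0.242 to 0.874).
The highest 3 were spread. A bin from 63800001 met *Klf7* with 32 and 53 pairs, a ratio of 2.12 (1.34 to 3.39). The *Adam23* bin from 63550001 met one from 63900001 with 21 and 33 pairs, a ratio of 1.98 (1.11 to 3.60). *Ino80d* met *Adam23* from 63400001 with 20 and 28 pairs, a ratio of 1.73 (0.940 to 3.24). These were picked as the extremes of the locus, so their size is no result.

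The last comparison was with imprinted genes of other chromosomes. The locus had 61181 trans pairs in WT and 48864 in the knockout. With 1 Mb windows around 20 other imprinted genes there were 656 pairs in WT, 1.03 times (0.951 to 1.11) the number from the trans pairs of those windows with all of the chromosome part, and 502 in the knockout, 0.949 times (0.868 to 1.04). The ratio was 0.922 (0.820 to 1.04). The windows of *H19* and *Kcnq1ot1*, centred 0.673 Mb apart, overlap, and counting each pair once, an alternative added after the data were seen, left 642 and 493 pairs and a ratio of 0.923 (0.819 to 1.04). The windows of 11 genes in WT and 8 in the knockout were above 1. No preference for the imprinted windows was detectable in either library at this depth. Of the 19 windows with an expected number of at least 10, 0 were higher and 3 lower by 1.5-fold or more in the knockout, and 17.5% of 2155 windows of other chromosomes were past that fold in either direction. The 3 were *Airn*, *Peg3* and *Trappc9*, and the lowest was at *Airn*, with 33 pairs in WT and 12 in the knockout and a ratio of 0.464 (0.218 to 0.923).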

How the data were processed

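Hi-C pairs were from 1 library of WT and 1 of *Lin28a* knockout ES cells. Per the submitters' processing notes, tools included CASAVA 1.8, Bowtie2 and HiC-Pro, with the build mm10 (GRCm38), and parameters were not given in the sources used here. The deposited lists hold 1 line per valid pair, in which the lowest score for mapping quality, as deposited, was 11. Fragment numbers matched the count of GATC sites, within 1, for 99.7% of the first ends tested. These were all from the WT list, and the knockout list was not tested. The lists analysed here were partial, so first ends from 3 to 90.75 Mb of chromosome 1 were used (5767991 and 4412861 pairs), and 0 columns of other samples were present.

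Cis pairs 5 kb or more apart were counted (Python 3.11.15, numpy 2.4.6, scipy 1.17.1, statsmodels 0.14.6). Expected contacts were the mean at equal distance on a 5 kb grid, without correction for the coverage of single bins. For insulation and the eigenvector, WT pairs were thinned at random to the knockout number and maps were balanced. Bins with a total below 20% of the median were dropped, and edges were minima of prominence 0.1 or more. Intervals were exact binomial, exact Poisson, Newcombe for differences of shares, and log-normal for odds. The calling of edges, the contact ratio and the crossing odds ratio were tested on simulated data. The eigenvector, the A share, the near and side shares, the bin pairs past the fold and the trans contacts were not. Genes came from GENCODE M21. The genes named were the 3 members and every protein-coding gene starting within 1 Mb of *Zdbf2*, with every edge there and up to 3 bin pairs in each direction. Members, lists and tests were chosen with earlier results of these data known.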

Additional observations from a re-analysis of the deposited data

How the results depend on the processing

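Of 115 alternative values for 23 results, 106 stayed within the main interval, or for counts of edges within 1.5 times of the main count, and 9 did not. Of 95 values with an interval, 8 lay on the other side of no difference, each for a result whose main interval included it. Among these was the difference in the near share, knockout minus WT. With 100 kb as near, it went from 0.68 to -0.67 points for *Gpr1* and from 0.04 to -0.85 points for *Zdbf2*. For *Adam23* it went from -0.51 to 0.11 points in the bin of the start site. For 5 of the 95 the interval changed between including and leaving out no difference. It came to include it for the A share of *Zdbf2* with gene-rich bins (2.36 points) and for the edges at 62.3625 and 62.7125 Mb with the smaller square. It came to leave it out for *Gpr1* with *Zdbf2* in 50 kb bins (1.18) and for the upper domain edge with a square of 500 kb (1.07). The alternatives for the odds ratio of the *Zdbf2* start bin and for the contact across that bin were added after the data were seen. They kept their intervals above 1, and scaling to the ends of both blocks gave the lowest ratio, 1.10. The knockout share of the locus with 500 kb to either side was 1.01 times that of WT. The odds ratio at the edge at 62.7125 Mb, 1.13 (1.03 to 1.24), was 1.01 with the smaller of the other squares. Edges within 1 Mb of *Zdbf2* numbered 7 in WT and 8 in the knockout with the smaller square, and 2 in each with a square of 500 kb. The share of bin pairs past the fold was 13.5% in 25 kb bins, 3.14% with a minimum of 80 pairs and 1.21% at a fold of 2, and over all bin pairs it was 13.4%, 3.92% and 0.938% at these settings. The cause of these moves was not tested. With 1 library per group, variation between cultures or clones was not measured. Contacts between the 3 genes rest on 137 to 298 pairs. Those of *Zdbf2* with the start bins of other genes within 1 Mb rest on 7 to 129, the highest number being for *Gpr1* in WT. No paired analysis was possible because each group had 1 library and the pairs name no replicate.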
